A study of Mus musculus with 56 samples.

Results

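The early mevalonate pathway builds squalene epoxide from acetyl-CoA, and 9 genes that encode its enzymes were followed through the day in mouse liver. They were chosen by name, as enzymes of steps between acetyl-CoA and squalene epoxide, and all 9 were found among the 25415 genes listed in the gene table. The livers came from 56 female C57BL/6J mice aged 9 weeks, kept under equal spans of light and dark. For 7 days food was offered either in the daytime only (daytime-restricted feeding, DRF) or at night only (nighttime-restricted feeding, NRF), and NRF served as the control regimen. Sampling fell on Zeitgeber time (ZT, counted in hours from lights on) 0, 4, 8, 12, 16, 20 and 24, which gave 14 groups of 4 animals and 28 animals per regimen.

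In this pathway acetyl-CoA units are joined, reduced to mevalonate, phosphorylated and decarboxylated to an activated isoprene unit, and isoprene units are then joined to farnesyl diphosphate and squalene. Liver is a main site of cholesterol synthesis, and most genes of the pathway are known targets of the sterol-sensing transcription factor SREBP2. Food intake and the circadian clock are both known to act on this pathway in liver.

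Levels are given as scaled counts, which are whole-number counts rebuilt from the deposited values and scaled by a factor of each library, so that the libraries summed to between 888885 and 1116285. What was counted is not known, since the rebuilt totals are larger than the sequencing depth. Rebuilt counts came out as whole numbers within 0.05 in all 56 libraries for 8 members, and for Hmgcs1 in 42 libraries, with all 56 within 0.2. Library pairs of a group had Pearson correlations across genes of 0.982 to 0.995 on the log2 scale. The 5 hepatocyte markers summed to between 97891 and 155354 scaled counts per library, and the 5 lymphocyte markers to at most 4.70. In these bulk samples, fewer cells of a type and less RNA per cell cannot be told apart.

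RefSeq start sites (build GRCm38.p6) were available for 6 of the 9 members, and 3 upstream sequences are shown because these genes mark the range of rhythms described further on. Hmgcs1 had the widest rhythm under NRF, Mvd the widest under DRF, and Mvk the narrowest under DRF. Each ends at the base before the start site and runs 5′ to 3′ along the gene, with capitals marking 3 motifs read on both strands: the sterol response element TCACNCCAC, the CCAAT box CCAAT and the GC box GGGCGG.
Hmgcs1: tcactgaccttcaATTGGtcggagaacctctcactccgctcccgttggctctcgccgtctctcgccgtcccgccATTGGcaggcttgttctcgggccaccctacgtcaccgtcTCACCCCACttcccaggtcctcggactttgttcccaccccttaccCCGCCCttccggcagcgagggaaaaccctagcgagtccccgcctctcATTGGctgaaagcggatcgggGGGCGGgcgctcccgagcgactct
Mvk: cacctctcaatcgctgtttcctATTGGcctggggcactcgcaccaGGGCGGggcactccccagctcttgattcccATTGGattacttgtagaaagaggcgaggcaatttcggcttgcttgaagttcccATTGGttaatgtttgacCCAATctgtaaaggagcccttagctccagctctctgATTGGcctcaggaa
Mvd: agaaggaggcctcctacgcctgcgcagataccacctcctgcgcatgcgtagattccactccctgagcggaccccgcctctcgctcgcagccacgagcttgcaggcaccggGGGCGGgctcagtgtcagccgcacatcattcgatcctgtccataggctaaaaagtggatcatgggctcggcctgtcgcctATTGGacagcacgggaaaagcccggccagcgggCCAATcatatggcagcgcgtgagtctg
They lie at chr13:119690101-119690350 (Hmgcs1, plus strand), chr5:114444074-114444268 (Mvk, plus strand) and chr8:122443423-122443672 (Mvd, minus strand). The Mvk stretch stops at 195 bases because the neighbouring gene Mmab, which is read the other way, begins beyond it. Within 250 bases upstream, a CCAAT box was present in 5 of the 6 members with a start site, against 37.5% of all 27025 genes in the table. A GC box was present in 5 of the 6, against 35.4%, and the sterol response element in Hmgcs1 alone, against 1.22%. An E-box, CACGTG, was found in 0 of the 6, against 6.86%. For Hmgcs1, the bases after the start site were not found in the annotated transcripts of the gene. The Idi1 window reaches into the annotated gene, and its CCAAT and GC boxes lie inside that gene. These matches describe letters in the window and were not tested as binding sites.

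Whether the pathway followed a 24-h rhythm was asked first, with a 24-h cosine fitted to log2(scaled count + 1) by limma and p-values adjusted by Benjamini-Hochberg over 25413 genes. Under DRF, 8 of the 9 members were rhythmic, where 37.7% of all genes passed. All 9 fitted peaks fell between ZT8.46 and ZT12.9. Under NRF, 8 of the 9 passed as well, against 38.5% of all genes, and the fitted peaks ran from ZT20.2 through ZT24 to ZT4.48. In both regimens 7 of the 9 passed, against 22.1% of all genes. With the 14 libraries of replicate number 3 left out, or those of number 4, 3 members passed under NRF in place of 8, while under DRF 8 passed in each case.

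**Figure D1:**
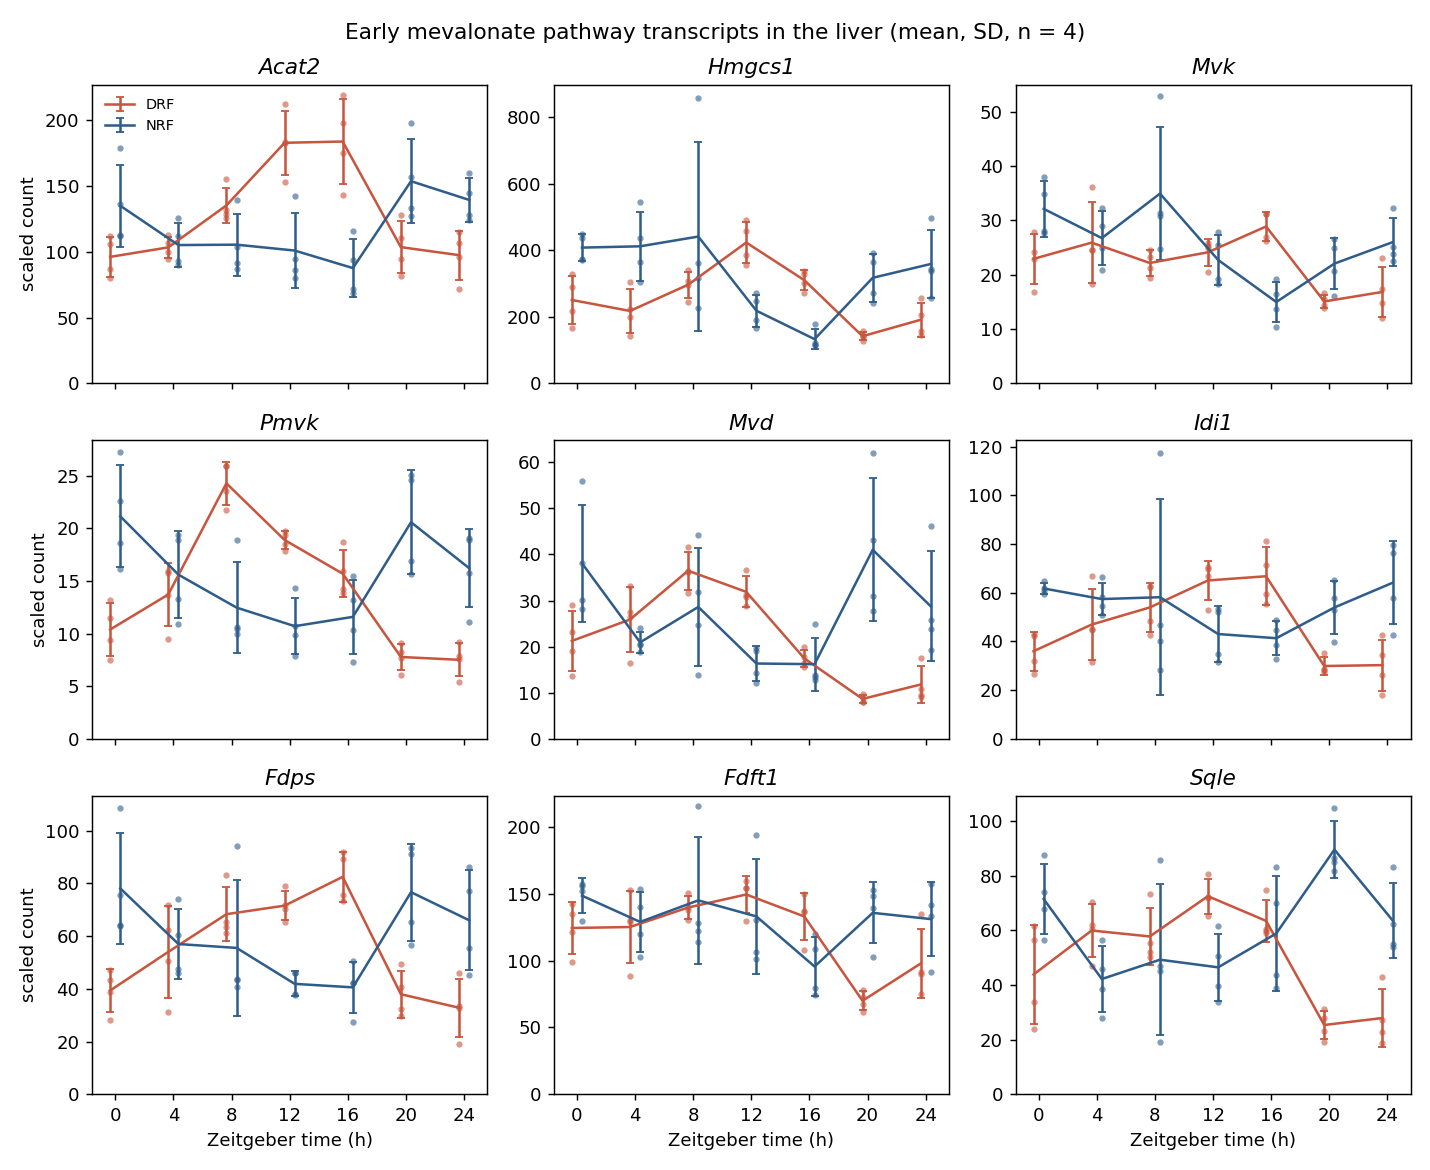
Scaled counts (y axis, linear from 0) of the 9 members against Zeitgeber time (x axis, h) under DRF (red) and NRF (blue); points are single livers, lines join group means and bars are SD (n = 4). Under DRF most lines are highest between ZT8 and ZT16, although Mvd had fallen to 17.4 at ZT16 and Mvk was at 22.2 at ZT8, and 1 NRF liver at ZT8 stands above its group in every panel.

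Acat2, the cytosolic thiolase that joins acetyl-CoA units to acetoacetyl-CoA, had the latest peak under DRF, at ZT12.9 ± 0.612 (SE). Its group mean under DRF went from 96.1 ± 15.2 scaled counts at ZT0 to 183.8 ± 32.5 at ZT16 (SD, n = 4 each), without overlap between those groups. Here and below, the highest and lowest groups were picked from a member's own group means. Their lack of overlap is a description and no support for a rhythm. Under NRF it was highest at ZT20, with 133, 157, 127 and 198 in the 4 livers, and lowest at ZT16, with 87.6 ± 21.8. Both rhythms passed the test, with adjusted p = 7.47e-07 under DRF and 0.0137 under NRF (limma). The NRF call was lost without the libraries of replicate number 1, 2 or 4 (adjusted p from 0.0545 to 0.0739, limma). It was also lost without the ZT24 libraries (0.0602).

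Hmgcs1 makes HMG-CoA in the cytosol and had the highest mean level of the 9 members per kilobase of exon, above Acat2 in 40 of 56 libraries. Under DRF the 4 livers at ZT12 held 491, 458, 387 and 356 scaled counts and those at ZT20 held 157, 128, 140 and 142. The 2 groups did not overlap, and their means differed 2.98-fold. Under NRF its highest group mean was at ZT8, with 441 ± 284, where the livers ran from 226 to 859. Its level was 371 to 450 at ZT0 and 114 to 179 at ZT16, the lowest group. Neither the ZT8 nor the ZT0 livers overlapped those at ZT16. Its cosine amplitude under NRF, 0.73 ± 0.12 on the log2 scale (SE), was the widest of the 9, with adjusted p = 0.000156 (limma).

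The next members are 2 kinases and a decarboxylase. Mvk, which phosphorylates mevalonate, did not pass under DRF (adjusted p = 0.0995, limma), where its amplitude was 0.23 ± 0.091. Its DRF group means lay between 15.1 ± 1.24 at ZT20 and 28.9 ± 2.73 at ZT16. Under NRF it passed (adjusted p = 0.00225, limma).

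Pmvk, the kinase that adds the next phosphate, rose under DRF to 24.3 ± 2.02 at ZT8 and was lowest at ZT24, with 7.51 ± 1.57. The 4 livers at ZT8 held 26.0, 21.8, 25.9 and 23.5 scaled counts, and those at ZT24 held 5.41, 7.84, 9.19 and 7.60. Every ZT8 liver lay above every ZT24 liver. Its amplitude was larger under DRF than under NRF by 0.32, with a 95% interval of 0.076 to 0.56.

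Mvd, which decarboxylates mevalonate diphosphate, had the earliest DRF peak, at ZT8.46 ± 0.542, and the widest DRF amplitude, 0.89 ± 0.13. At ZT8 the DRF livers held 36.3, 36.2, 41.7 and 31.7 scaled counts, and at ZT20 they held 7.95, 8.02, 9.69 and 8.96. The 2 groups were 4.21-fold apart. Its amplitude exceeded that under NRF by 0.43, with an interval of 0.073 to 0.79. For the other 7 members, the interval of this amplitude difference spanned 0.

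Idi1, the isomerase that interconverts the activated isoprene units, peaked at ZT11.4 ± 0.744 under DRF and ZT1.45 ± 1.34 under NRF. Its NRF rhythm passed with adjusted p = 0.0436 (limma), and its highest and lowest NRF groups overlapped. That call was lost on the values as deposited (0.0653), with the replicate block (0.0570), without the ZT24 libraries (0.0965) and without the libraries of replicate number 1, 3 or 4 (0.117 to 0.177). Fdps, which joins isoprene units to farnesyl diphosphate, peaked at ZT11.7 ± 0.700 and ZT23.9 ± 1.05. Its DRF group means lay between 32.8 ± 10.9 at ZT24 and 82.5 ± 9.41 at ZT16.

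Fdft1 and Sqle close the series, as squalene synthase and squalene epoxidase. Fdft1 was rhythmic under DRF (adjusted p = 0.00222, limma), with 149.6 ± 13.6 scaled counts at ZT12 and 70.0 ± 7.01 at ZT20. Under NRF it did not pass (adjusted p = 0.266, limma), with an amplitude of 0.18 ± 0.091. Of its exon bases, 18.3% overlap exons of Ctsb on the opposite strand, and the use of strand in counting is not given in the sources used here. Sqle had the earliest NRF peak, at ZT20.2 ± 0.909, with 84.9, 86.5, 81.7 and 105 scaled counts at ZT20.

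The 2 regimens were then compared over the whole day. The rhythm differed between DRF and NRF for all 9 members, where 38.8% of all genes passed. Adjusted p-values ran from 9.72e-11 for Pmvk to 0.0152 for Fdft1 (limma). The distance between the DRF and NRF peaks was at least 8 h for 6 of the 7 members rhythmic in both regimens, against 52.3% of the 5621 such genes, whose median distance was 8.29 h. It was 7.64 h for Hmgcs1, the other of the 7. Without NRF replicate 2 at ZT8 the NRF peak of Hmgcs1 moved from ZT3.32 to ZT2.65, which takes its distance past 8 h. The longest of all 9 was 11.7 h for Fdps (95% interval 9.20 to 14.3) and the shortest 5.57 h for Fdft1 (1.43 to 9.71). Fdft1 did not pass for a rhythm under NRF, nor Mvk under DRF, so the distances of these members are poorly defined. The Fdft1 distance was 11.6 h on the values as deposited and 7.68 h without the libraries of replicate number 2. On the deposited values Hmgcs1 and Mvk also passed 8 h, at 9.82 and 8.08 h, and Acat2 fell to 7.33 h.

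**Figure D2:**
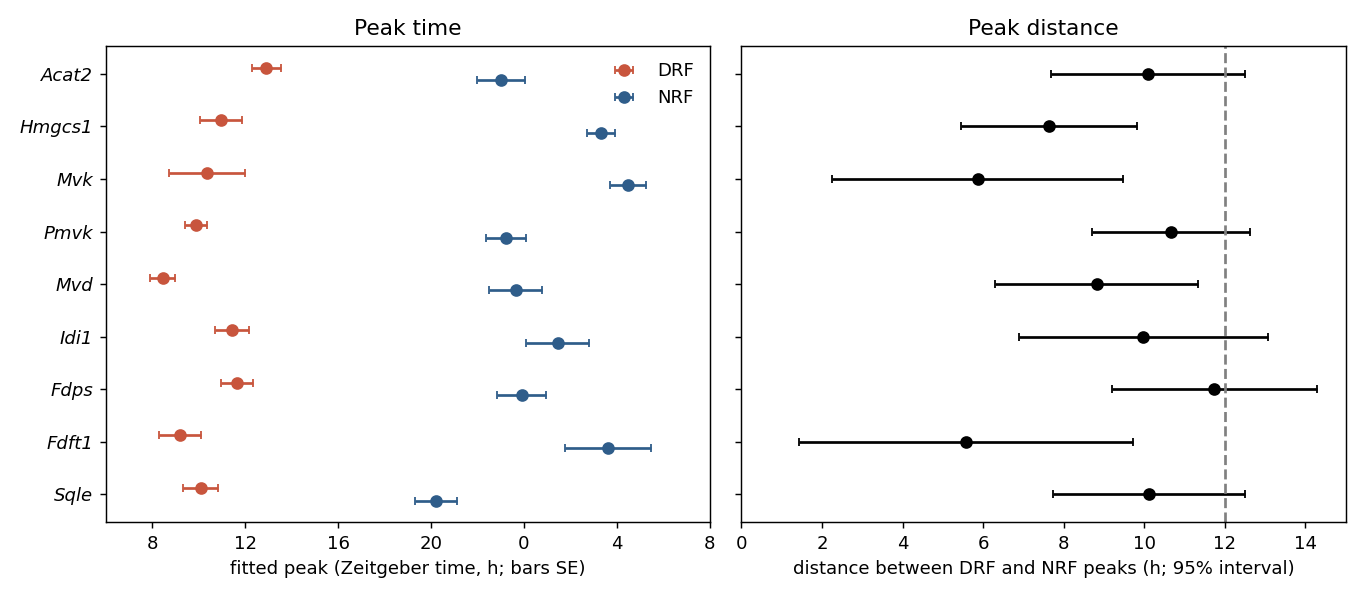
Left, fitted peak time (x axis, Zeitgeber time in h, running past ZT24 to the next day) under DRF (red) and NRF (blue) with SE for each member (y axis); right, distance between the 2 peaks (x axis, h) with its 95% interval and a dashed line at 12 h. DRF peaks gather between ZT8.46 and ZT12.9, whereas NRF peaks spread from ZT20.2 to ZT4.48. All fitted peaks are drawn, including Mvk under DRF and Fdft1 under NRF, which did not pass for a rhythm.

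A full inversion would move the pattern by 12 h, so NRF times were moved by 12 h and the rhythms compared again. A difference remained for Hmgcs1 (adjusted p = 0.00514), Mvk (0.0124), Mvd (0.0145) and Fdft1 (0.0192) by limma, which is 4 of 9 members against 34.2% of all genes. The 95% intervals of the peak distance for these 4 ended below 12 h. Mvk had not passed for a rhythm under DRF, nor Fdft1 under NRF, so their distances and intervals are poorly defined. The test takes amplitude and peak time together, so a remaining difference need not be a shift other than 12 h. For the other 5 members a difference was not detected, and their intervals included 12 h. On the values as deposited none of these 4 passed (adjusted p from 0.0633 for Mvd to 0.487 for Fdft1, limma), whereas Acat2 did (0.00289). With the exon length trend removed, 5 members passed, and 14496 of all genes in place of 8699. Of the members, 2 passed without the libraries of replicate number 1, 2 or 4.

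The daily mean did not pass for any member (0 of 9, against 6.83% of all genes, of which 5024 had an unadjusted p under 0.05). Acat2 came nearest, with a DRF minus NRF difference of 0.22 ± 0.076 (SE) on the log2 scale and adjusted p = 0.0691 (limma). It was the member that passed once NRF replicate 2 at ZT8 was left out, or once genes with a median scaled count under 1 were dropped.

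Differences at single times turned sign across the day. At ZT20, 8 of the 9 members were lower under DRF, against 6.07% of all genes, and at ZT24 again 8, against 6.95%. At ZT12, 5 members were higher under DRF (7.06% of all genes) and at ZT16, 4 (8.74%). At ZT0, 5 were lower (8.02%). Some cell type markers also differed between the regimens. At ZT20 the 5 endothelial markers summed to between 428 and 461 scaled counts under DRF and between 343 and 392 under NRF, without overlap, and 2 of the 5 were higher under DRF by the test. All 5 red blood cell markers had a higher daily mean under DRF. Of the 5 hepatocyte markers, 1 had a higher and 2 a lower daily mean under DRF. The part of these markers in the members' differences was not tested.

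**Figure D3:**
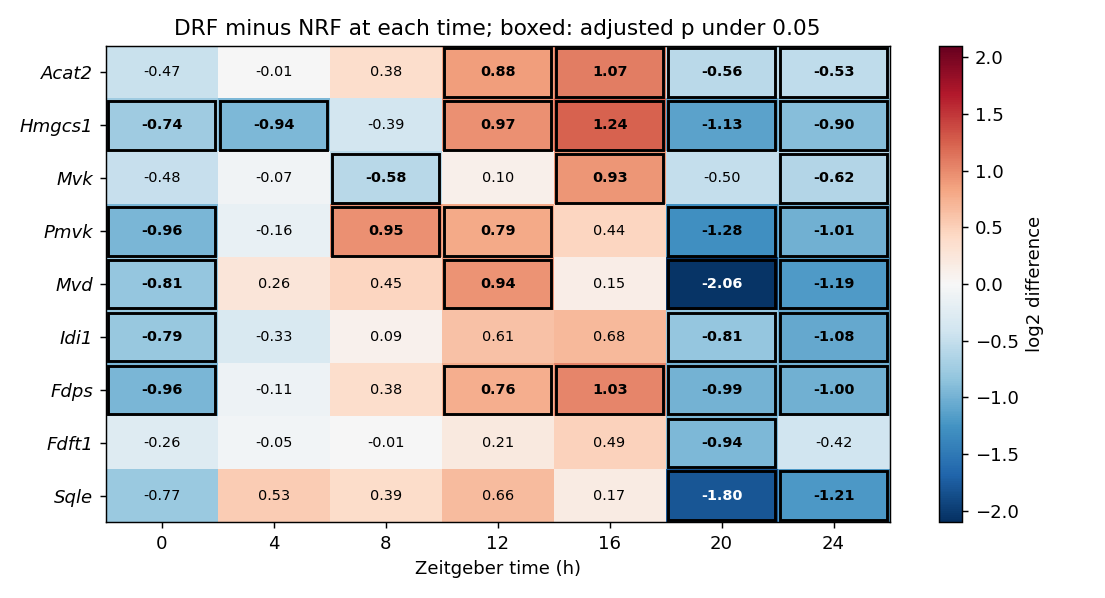
DRF minus NRF difference on the log2 scale (colour and printed value; red higher under DRF, blue lower) for each member (y axis) at each Zeitgeber time (x axis, h), with boxes where the limma adjusted p was under 0.05. The ZT20 column is blue for all 9 members, from -0.50 for Mvk to -2.06 for Mvd, and the ZT12 column is red for all 9.

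At ZT20 Mvd held 7.95, 8.02, 9.69 and 8.96 scaled counts under DRF and 31.1, 62.0, 27.7 and 43.2 under NRF. The groups were far apart, by -2.06 ± 0.27 on the log2 scale (SE; adjusted p = 1.89e-07, limma). Sqle held between 19.2 and 31.0 in the 4 livers under DRF against 84.9, 86.5, 81.7 and 105 under NRF. Its difference was -1.80 ± 0.29 (adjusted p = 8.44e-06, limma), also without overlap. For Pmvk the difference was -1.28 ± 0.21 and for Hmgcs1 -1.13 ± 0.26. Mvk was the member that did not pass at ZT20, with -0.50 ± 0.20 and adjusted p = 0.0904 (limma). Without the libraries of replicate number 4, 5 members passed at ZT20 in place of 8.

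At ZT24 the members lower under DRF were all but Fdft1, whose difference was -0.42 ± 0.20 (adjusted p = 0.161, limma). The largest was Sqle, with -1.21 ± 0.29, then Mvd, with -1.19 ± 0.27. The same clock time a day earlier, ZT0, gave calls for Fdps (-0.96), Pmvk (-0.96), Mvd (-0.81), Idi1 (-0.79) and Hmgcs1 (-0.74). ZT24 and ZT0 livers did not differ by the test in any member, under DRF (0 of 9, against 3.06% of all genes, 4441 genes with an unadjusted p under 0.05) or under NRF (0 of 9, against 7.82%, 5062 genes). The ZT24 minus ZT0 differences of the members had a median of -0.38 under DRF and -0.22 under NRF on the log2 scale. Over all genes these medians were -0.00066 and -0.00040. Mvd under DRF came nearest to passing, with -0.80 ± 0.27 and adjusted p = 0.0909 (limma). Without the libraries of 1 replicate number, between 4 and 6 members were lower under DRF at ZT24 and between 1 and 6 at ZT0.

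At ZT12 the higher members were Acat2, Hmgcs1, Pmvk, Mvd and Fdps. Hmgcs1 rose by 0.97 ± 0.26 and Mvd by 0.94 ± 0.27. With replicate number 4 left out, 1 of the 5 passed. At ZT16 Acat2 held 175, 143, 198 and 219 scaled counts under DRF and 69.0, 93.8, 71.9 and 116 under NRF, a difference of 1.07 ± 0.18 (adjusted p = 2.78e-05, limma). The groups did not overlap, and Hmgcs1, Fdps and Mvk were higher at that time as well.

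In the light phase fewer members differed, and the counts at ZT4 and ZT8 lay close to the shares over all genes. At ZT4, 1 was lower under DRF (9.56% of all genes), namely Hmgcs1, with -0.94 ± 0.26, and it did not pass without replicate number 2. At ZT8, 1 was higher (5.72%), Pmvk, with 0.95 ± 0.21. Mvk was the 1 member lower at ZT8 (7.27%), with -0.58 ± 0.20, and it did not pass without NRF replicate 2.

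Livers sampled while food was offered were next compared with livers sampled without it, within each regimen. ZT4 and ZT8 were set against ZT16 and ZT20, so that food falls in the light under DRF and in the dark under NRF. Under DRF 4 members were higher with food, against 15.3% of all genes: Mvd by 1.23 ± 0.19, Pmvk by 0.67 ± 0.15, Sqle by 0.54 ± 0.20 and Fdft1 by 0.44 ± 0.14. With ZT12 added to the first pair of times and ZT24 to the second, so that each food state held 3 times, 7 members passed. On the values as deposited 2 passed, as did 2 or 3 with 1 replicate number left out. Sqle did not pass in any of those 4 runs (adjusted p from 0.0667 to 0.174, limma), nor with median-of-ratios scaling (0.0539).

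Under NRF, Sqle was the 1 member higher with food (15.6% of all genes), by 0.74 ± 0.20. Without the libraries of replicate number 4 it did not pass, with 0.53 and adjusted p = 0.113 (limma). Hmgcs1 and Mvk were lower with food, 2 members against 21.7% of all genes, at -0.97 ± 0.18 and -0.71 ± 0.14. These NRF counts lay near or below the shares over all genes. Food and light change together within a regimen and cannot be told apart there. The food contrast differed between the regimens for 4 members (20.5% of all genes in that direction), which were Hmgcs1, Mvd, Mvk and Fdft1. Because food falls in opposite light phases, this difference equals the light minus dark difference added over both regimens. A food effect that differs and a shared effect of time of day cannot be told apart by it.

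Animals of the same group also differed from each other, and the members moved together. Deviations of each library from its group mean were correlated for each of the 36 pairs of members over 56 libraries. Pearson's r ran from 0.42 to 0.89 with a median of 0.73, and Spearman's rho from 0.38 to 0.84. The largest adjusted p over the 36 pairs was 0.0158 for r and 0.0217 for rho (permutation within groups, 100000 draws, two-sided). Without the 2 libraries farthest from the median of the first gene, r ran from 0.33 to 0.85. Within DRF r ran from 0.37 to 0.93 and within NRF from 0.32 to 0.92. Pairs of other genes were not examined, so it is not known whether such correlations are particular to the members.

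**Figure D4:**
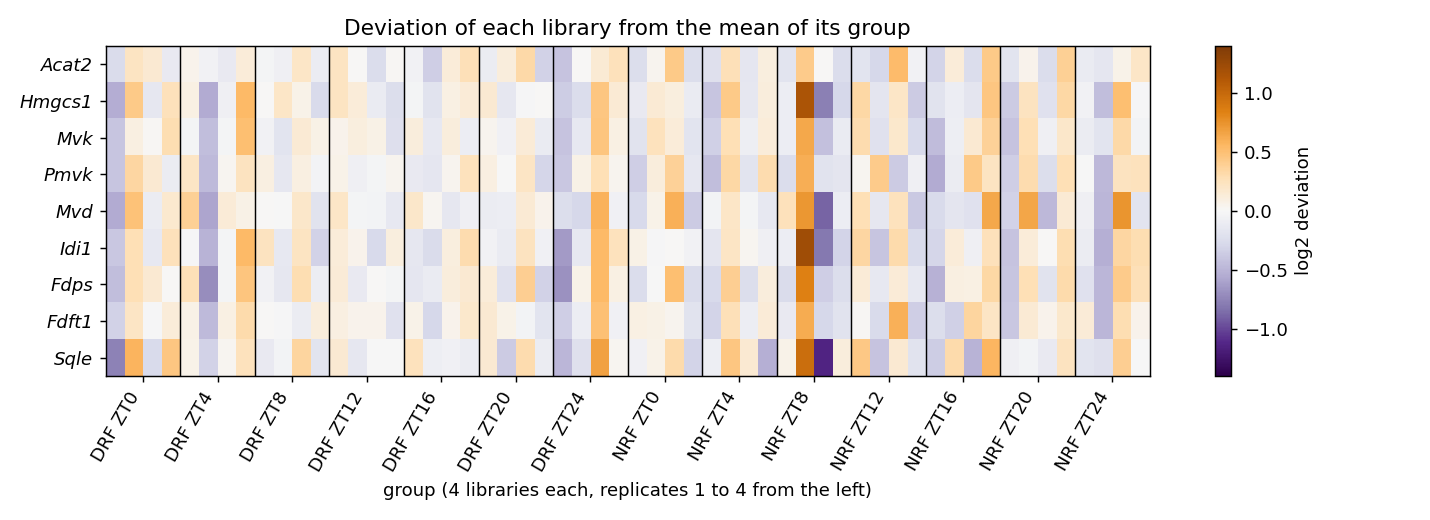
Deviation of each library from its group mean (colour, log2) for the 9 members (y axis) in the 56 libraries (x axis, 14 groups of 4 separated by lines). Columns tend to keep 1 colour from top to bottom, and the darkest orange column is NRF replicate 2 at ZT8, with a mean deviation of 0.80.

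NRF replicate 2 at ZT8 was the highest of its group in all 9 members, whereas it was the highest of its group in 22.8% of all genes. Its Hmgcs1 level was 859 scaled counts, against 363, 226 and 316 in the other livers, and its Idi1 level 118, against 46.8, 28.2 and 40.1. Its sum of hepatocyte markers, 108608, lay just below the range of the other 3 livers, 108737 to 124295. Its stellate cell markers summed to 890, against 762 to 785, its cholangiocyte markers to 29.1, against 22.4 to 25.2, and its red blood cell markers to 614, against 842 to 1351. The part of these differences in the members' levels was not tested. The Kupffer cell, endothelial cell, lymphocyte and adipocyte markers of this library lay within the range of the other 3 livers. Without this library r between members ran from 0.35 to 0.85, and 8 members stayed rhythmic by count under NRF.

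Compared per kilobase of exon, the mean level over all libraries fell from Hmgcs1, with 64.0 ± 28.8 scaled counts per kilobase (SD, n = 56), through Acat2, with 48.6 ± 14.5, and Fdft1, with 29.7 ± 7.39. Acat2 exceeded Fdft1 in 55 of 56 libraries and Fdft1 exceeded Idi1 in 56. Idi1, Fdps, Mvd, Sqle, Mvk and Pmvk followed between 14.4 and 8.62, and neighbours in this order lay within their spread over libraries, although Mvd exceeded Sqle in 45 of 56. These levels use the union of annotated exons as length. Exons of other genes cover 26.7% of the exon bases of Fdps on the same strand, and 12.1% of Hmgcs1 and 9.22% of Idi1 on the opposite strand.

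Of 10 genes of late sterol synthesis, 7 differed in rhythm between the regimens, where 38.8% of all genes passed, led by Sc5d (adjusted p = 1.74e-14), Lss (7.81e-09) and Dhcr7 (1.99e-07) by limma. Tm7sf2, Msmo1 and Hsd17b7 did not pass. Of 10 genes of the SREBP system 8 differed, led by Srebf1, Insig2 and Scap, and Mbtps2 and Stard4 did not pass. DRF peaks of the 8 lay both inside and outside the members' span of ZT8.46 to ZT12.9. Those of Srebf1 (ZT6.71), Insig2 (ZT15.3) and Scap (ZT18.3) lay outside it. Srebf2, which encodes SREBP2, passed for the difference (adjusted p = 0.0171) but in neither regimen alone (0.0816 under DRF and 0.0675 under NRF, limma). Of 10 genes that lead from the pathway into isoprenoids, 6 differed, led by Nus1, Pdss1 and Pdss2, whereas Ggps1, Dhdds, Fntb and Pggt1b did not pass.

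Among related enzymes, Acat3, a close relative of Acat2, differed in rhythm, with a DRF peak at ZT16.5. Acat1, the mitochondrial thiolase, did not pass, with adjusted p = 0.250 (limma), and Idi2 was not among the genes analysed here.

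The genes whose profiles were most like the mean of the 9 members over the 56 libraries were Mmab, Cyp51, Lss, Dhcr7, Gm13502, Gm3571, Pstpip2, Sc5d, Gm5873 and Cndp2, with Pearson's r from 0.92 to 0.80. The libraries share regimen and time, so these values are a description. Mmab is the gene next to the Mvk start site, and Gm13502, Gm3571 and Gm5873 are annotated as processed pseudogenes, which could share reads with a parent gene. For the members themselves, r with the mean of the other 8 ran from 0.71 for Acat2 to 0.93 for Fdps.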

How the data were processed

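RNA was sequenced from 56 livers; the labels' protocol describes ribosomal RNA depletion and a strand-specific kit, while their molecule field names polyA RNA. The submitters' processing notes name CASAVA 1.8, featureCounts 1.5.0-p3 and the builds mm10 and GRCm38.p6; the aligner, and whether counting used strand, are not given in the sources used here. The deposited gene values, named TPM by the authors, were treated as a score, because they followed a logarithm of counts per exon length; transcript values, also a deposited score, and circular RNA values were not used for results.

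With GENCODE vM21 exon lengths, a curve per library turned 25413 of 25415 genes into counts (22524 with whole counts at the annotated length, 2205 with a searched length). In 11534 genes left out of the fit, values were whole within 0.05 in 99.0% of cases up to 10 counts, 96.4% up to 100, 96.6% up to 1000 and 97.0% up to 20000. The rebuilt counts, with library totals of 324.5 to 730.6 M, exceed the sequencing depth the study gives and are not reads, so they carry no read depth and no count model was run. Levels were tested as log2(scaled count + 1) with limma, on all 25413 genes, with cosine terms for rhythms (period 24 h) and group means for single times. The design had assumed linear values. The fits were tested on simulated data. Values with ± give SD for levels and SE for fitted values.

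The named genes were the 9 members, genes of lists of up to 5 (some are not reported here), in longer lists the 3 with the lowest adjusted p and those that did not pass for the rhythm difference, and the 10 most like the members. Srebf2 and NRF replicate 2 at ZT8 were singled out after values were seen. The members and lists were chosen with earlier results of these data known. Groups came from the labels; same-numbered livers are different animals. Marker lists of 5 genes each gave sums per library under DRF and NRF of 573 to 990 and 551 to 1074 for Kupffer cells, 644 to 922 and 669 to 920 for stellate cells, 338 to 461 and 343 to 475 for endothelial cells, 20.7 to 40.8 and 20.6 to 37.3 for cholangiocytes, and 567 to 2039 and 469 to 1351 for red blood cells. Of 4 adipocyte markers 1 was measured, at up to 2.25. Alternatives were values as deposited, a pseudocount of 0.1, other filters and scaling, an exon length trend, a replicate block, a rank test and left-out libraries.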

Additional observations from a re-analysis of the deposited data

Results flagged for a closer look

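In 126 groups of 4 livers (9 members in 14 groups), the highest or lowest liver stood far from the others by Dixon's test 10 times. For independent groups chance gives about 1 in 20. The members share the same livers and moved together, so the 126 are not independent and the count was not tested against that rate. NRF replicate 2 at ZT8 was high in 3 of the 10, with 18.9 scaled counts of Pmvk, 94.2 of Fdps and 215.7 of Fdft1. NRF replicate 4 at ZT16 was high for Hmgcs1, with 179, and Mvd, with 24.8. DRF replicate 4 at ZT12 was low for Mvk, with 20.4, and Fdft1, with 129.5. The other 3 were Idi1 in DRF replicate 3 at ZT20, with 35.1, Fdft1 in NRF replicate 4 at ZT0, low at 129.4, and Sqle in DRF replicate 1 at ZT16, with 74.9.

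In 4 members the food contrast differed between DRF and NRF by the interaction test, as a DRF minus NRF difference on the log2 scale. It was 1.21 for Hmgcs1 (adjusted p = 0.000215), 1.16 for Mvd (0.000652), 0.88 for Mvk (0.000416) and 0.70 for Fdft1 (0.00422), all by limma. The same value is the light minus dark difference added over both regimens. A food effect that differs and a shared effect of time of day cannot be told apart by it.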

How the results depend on the processing

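The count of members rhythmic under DRF was 8 in every alternative run, and the count with a different rhythm was 9, or 8 to 9 with 1 replicate number left out. Leaving out 1 replicate number gave 3 to 7 members for the NRF rhythm, 2 to 4 after the 12-h move, 1 to 6 lower at ZT0, 0 to 1 lower at ZT4, 0 to 1 lower at ZT8, 1 to 4 higher at ZT12, 5 to 7 lower at ZT20, 4 to 6 lower at ZT24, and for food 2 to 3 higher under DRF and 0 to 1 higher under NRF. On values as deposited the counts were 1 after the 12-h move, 2 lower at ZT0, 0 lower at ZT8, 2 higher with food under DRF, 2 under NRF, 2 for the food difference and 1 for ZT24 against ZT0 under NRF. With 3 times per food state, 7 members were higher under DRF. The exon length trend gave 1 member for ZT24 against ZT0 under DRF. For the daily mean, a median scaled count of at least 1 and leaving out NRF replicate 2 at ZT8 (chosen after seeing the data) each gave 1, and the latter gave 0 lower at ZT8. The cause of these changes was not tested.

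Food minus no food reversed under DRF for Acat2 with 3 times per food state (0.17) and, on values as deposited, for Hmgcs1 (-0.0099), Idi1 (-0.015) and Fdps (-0.030); no such effect had passed. Without replicate 4, Acat2 reversed for food under NRF (range with 1 number left out -0.028 to 0.22) and for ZT24 minus ZT0 under NRF (-0.082 to 0.19). With the exon length trend removed, 10404 genes in place of 3963 were higher with food under NRF, 14879 in place of 9587 rhythmic under DRF, and 14496 in place of 8699 different after the 12-h move.

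Same-numbered DRF and NRF livers did not deviate together: 2 of 28 pairs had a correlation over 0.1 (median -0.016), and 6 matched best with their own number. With the replicate block, 7 members were rhythmic under NRF, 5 differed after the 12-h move and 5 in the food effect; the other member counts were as without it. Recovered counts carry no read depth, so counting error was not estimated.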
